A study of Homo sapiens with 32 samples.

Results

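The comparison described here set WT MCF10A cells after 24 h of TGFβ1 against the same cells after 6 h, and asked which transcripts changed only once the treatment went on past its first hours and which early changes were undone. It rested on 8 of the 32 libraries of the RNA-seq series, chosen by their labels as the WT libraries of these times, 4 at 24 h and 4 at 6 h. MCF10A is a non-tumorigenic human mammary epithelial line. The WT cells were the clones 27 and 2, each grown from a single cell that had been exposed to CRISPR/Cas9 but kept an unaltered JUNB gene. They were compared here with the mut clones 1 and 65, in which an extended deletion in JUNB left a smaller polypeptide. Each clone received 5 ng/ml TGFβ1 for 6, 24 or 72 h or solvent in 2 replications, and all plates were harvested at the same time after seeding, so that the 6 h and the 24 h cells had been in culture equally long. The solvent cells, labelled as time 0, were exposed to solvent for 72 h. Each clone is a single isolate, so that what belongs to a genotype and what belongs to its clones cannot be told apart. The libraries of 1 clone and 1 replication are called a series below and are written 2-1, 2-2, 27-1 and 27-2, and 4 values in a row are always given in that order.

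TGFβ1 binds a receptor complex that phosphorylates SMAD2 and SMAD3, and these enter the nucleus with SMAD4 to act on chromatin together with other factors, AP-1 among them. In epithelial cells the signal starts an epithelial-mesenchymal transition (EMT), in which cell junctions and keratin filaments are given up and matrix, integrins, proteases and a contractile cytoskeleton are built, and it also arrests the cell cycle in G1. The direct SMAD targets, which include the pathway's own inhibitors, are known to respond within hours, and genes that depend on newly made factors respond later.

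The 8 libraries held between 40151501 and 54651906 counts, so that 3 counts, taken as the floor of detection, equalled 0.0549 to 0.0747 counts in a library scaled to 1000000 counts (CPM). All 7 markers of basal mammary epithelium looked at were present, with a summed level of 10565 to 14013 CPM at 6 h and 9208 to 13954 CPM at 24 h. The 5 fibroblast markers found in the table summed to 7.67 to 15.2 CPM at 6 h and 13.1 to 25.4 CPM at 24 h. Nearly all of this was DCN (6.64 to 14.5 CPM, then 11.8 to 24.2 CPM), whereas COL3A1 and THY1 did not exceed 0.0481 CPM. PDGFRA had 0.268 to 1.15 CPM at 6 h and 0.988 to 1.51 CPM at 24 h, and PDGFRB 0.169 to 0.504 and 0.142 to 0.329 CPM. The 4 luminal markers found summed to 35.6 to 42.8 CPM at 6 h and 34.7 to 42.5 CPM at 24 h, the leukocyte markers to 18.6 to 23.5 and 18.6 to 26.8 CPM and the endothelial markers to 4 to 7.26 and 3.24 to 7.29 CPM. Among these, PTPRC, CD3E and VWF, which define leukocytes, T cells and endothelium, did not exceed 0.11 CPM. The leukocyte sum came from CD68 (9.46 to 18.2 CPM at 6 h and 13 to 24.1 CPM at 24 h) and CD14 (3.61 to 11.4 and 2.56 to 5.56 CPM). Nearly all of the endothelial sum was KDR (4 to 7.26 and 3.24 to 7.29 CPM). JUNB, the edited gene, stood at 251, 276, 217 and 187 CPM at 6 h and at 249, 277, 297 and 261 CPM at 24 h. The groups overlapped, and the log2 change of 0.23 ± 0.16 (SE) did not pass the test (limma-voom adjusted p = 0.259). JUNB overlaps HOOK2 on the other strand, and its counts may hold reads of that gene. In bulk RNA, fewer cells of a kind and less RNA per cell cannot be told apart.

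From 6 h to 24 h, 5602 of 14865 tested genes passed the limma-voom test at an adjusted p under 0.05. Of these, 1629 were higher (11.0% of the genes tested) and 3973 were lower (26.7%). Among those that changed by at least 1 on the log2 scale, the directions were closer in number, with 242 higher and 296 lower. The scaling set much of the imbalance of the smaller changes. With library totals the median gene changed by -0.0866, and the 10 most abundant genes took 5.04% to 5.49% of the counts at 6 h and 7.21% to 8.06% at 24 h. With factors from the trimmed mean of M-values (TMM) the median was 0.0172 and the same test called 2806 genes higher and 2497 lower. A total of 4126 genes were called in the same direction under both scalings. Without the series as a block, 1064 genes were higher and 3124 lower. The step before it, 6 h against solvent, had 1157 genes higher (7.78%) and 2687 lower (18.1%). Both steps use the 6 h libraries, so that a chance high value at 6 h pushes a gene up in the first step and down in the next, and the classes below are therefore given as descriptions.

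Genes were sorted by the sizes of the 2 steps. Each change of at least 1 named here also had to pass the test of its step, and so did each return. Second-wave genes changed by less than 0.5 (log2) in the first 6 h and then by at least 1 by 24 h, and 88 rose and 186 fell. Another 67 genes rose by at least 1 in both steps and 24 fell by at least 1 in both. In contrast, 6 genes rose by at least 1 and then lost at least 50% of that rise, and 5 genes fell and recovered in the same manner. The edges of the classes are arbitrary: IL1B was just inside the rising second wave with 1.003 and MICAL1 just outside with 0.984, and KIF15 at -1.0 was just inside the falling second wave and ZGRF1 at -0.996 just outside. Of the genes with at least 10 CPM over the 8 libraries, the classes held 16 and 55 second-wave genes, 28 that rose in both steps, 5 that fell in both and none of the genes that turned back. Where such a gene is named below for the size of its change or for its class, libraries without overlap were a condition of naming. The lack of overlap is then no further support. Of all 14865 tested genes, 980 were higher and 2874 lower at 24 h without overlap.

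Among second-wave risers of at least 10 CPM, IL32 changed most. IL32, a pro-inflammatory cytokine, was at 4.36, 4.05, 7.05 and 7.89 CPM at 6 h, against a solvent mean of 6.09 ± 2.45 CPM (SD, n = 4), and at 17.8, 14.4, 35.8 and 32.3 CPM at 24 h. Every 24 h library was above every 6 h library, with a log2 change of 2.09 ± 0.20 (SE, adjusted p = 1.54e-08), and by 72 h the mean had reached 48.3 ± 28.1 CPM. KDELR3, a receptor that returns proteins to the endoplasmic reticulum, went from 10.8, 10.5, 7.97 and 17.1 CPM to 24.7, 24.8, 19.5 and 48 CPM, a log2 change of 1.32 ± 0.13 (adjusted p = 3.89e-08). Series 27-2 was the highest at both times, and the groups did not overlap. KDELR3 went on to 55.7 ± 16.2 CPM at 72 h.

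NT5E, which encodes the ectonucleotidase CD73, was the most abundant of the named second-wave genes, with 429.8, 435, 257 and 532 CPM at 6 h and 890.1, 1039, 710.1 and 1089.8 CPM at 24 h. Its lowest 24 h library was above its highest 6 h library, and the log2 change was 1.20 ± 0.18 (adjusted p = 5.75e-06). MYL9, a regulatory light chain of non-muscle and smooth muscle myosin, rose from a mean of 33.6 ± 8.18 CPM to 75.2 ± 21.9 CPM, with a log2 change of 1.15 ± 0.15 (adjusted p = 9.90e-07). ABAT, the enzyme that degrades GABA, rose by 1.26 ± 0.14 (adjusted p = 7.76e-08), to 15 ± 3.89 CPM. At 72 h the median second-wave riser stood 1.57 (log2) above solvent, close to its 24 h level of 1.49, and 69 of 88 were at least 1 above solvent. The 72 h levels gave none of the changes that chose these genes, although the 72 h libraries entered the shared filter and estimate of the spread, and the solvent levels were used.

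The falling second wave, with 186 genes against 88 risers, was larger under library totals, whereas TMM factors gave 127 fallers and 113 risers. Its named members included metabolic genes. ALDH3A1, an aldehyde dehydrogenase of epithelia, stood at 169.6, 329, 149 and 77.6 CPM at 6 h and at 20.0, 44.8, 25.3 and 12.8 CPM at 24 h. The groups were far apart although the libraries of each time differed over a wide range, because every series fell by a similar factor, and the log2 change was -2.79 ± 0.20 (SE, adjusted p = 2.92e-10). At 72 h only 8.68 ± 1.29 CPM were left. ENTPD2, an ectonucleotidase that hydrolyses extracellular ATP, fell by 2.06 ± 0.22 (adjusted p = 8.11e-08), from 118, 162, 108 and 63.4 CPM to 24.6, 30.1, 30.3 and 19.7 CPM. NUP210, a nuclear pore membrane protein, fell by 1.66 ± 0.15 (adjusted p = 1.12e-08), from 58.4 ± 17 to 18.9 ± 8.11 CPM. IGFBP2, which binds insulin-like growth factors, fell by 1.49 ± 0.18 (adjusted p = 2.75e-07), from 38.8 ± 8.53 to 13.8 ± 4.01 CPM. SLC25A10, the mitochondrial dicarboxylate carrier, fell by 1.30 ± 0.13 (adjusted p = 3.85e-08). In all 5 genes the 2 groups of libraries did not overlap, which was a condition of naming them. Over the whole class this held for 119 of 186 genes (64%). SLC25A10 stood at 16.6 ± 2.62 CPM at 72 h, above its 24 h mean of 11.5 ± 2.61 CPM, while IGFBP2 had dropped further to 4.97 ± 2.1 CPM. Over the class, the median gene was 1.47 (log2) below solvent at 24 h and 1.34 below at 72 h (medians -1.47 and -1.34).

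Most of the largest rises among genes of at least 10 CPM whose libraries did not overlap belonged to genes that were already up at 6 h. TGM2, the transglutaminase that crosslinks extracellular matrix (chr20:38127385-38166578, GRCh38), was at 106, 92.4, 103 and 103 CPM at 6 h and at 665, 648, 636 and 772 CPM at 24 h. The replicates were tight and the times far apart, with a log2 change of 2.75 ± 0.22 (adjusted p = 1.09e-09) on top of 1.85 in the first step. MMP9, a gelatinase that degrades basement membrane collagen (chr20:46008908-46016561), went from 11.2, 13.1, 5.66 and 9.2 CPM to 54.6, 49.9, 49.4 and 61.5 CPM, a log2 change of 2.52 ± 0.23 (adjusted p = 8.72e-09). Both genes had 4 of 4 series higher. The other gelatinase, MMP2, rose by 2.18 ± 0.20 (adjusted p = 8.06e-09), from 10.1 ± 4.33 to 46.1 ± 18.3 CPM. NOX5, an NADPH oxidase, rose by 1.77 ± 0.15 (adjusted p = 3.14e-09), from 5.68 ± 1.3 to 19.3 ± 2.15 CPM. FBN1, the fibrillin of microfibrils, rose by 1.69 ± 0.19 (adjusted p = 1.18e-07), from 8.09 ± 2.52 to 26 ± 7.07 CPM. SCG5, a chaperone of prohormone processing, rose by 1.68 ± 0.23 (adjusted p = 2.34e-06), and TNC, the matricellular protein tenascin C, by 1.64 ± 0.18 (adjusted p = 8.18e-08). TNC then stood at 133 ± 35.6 CPM at 72 h, against 219 ± 72.7 CPM at 24 h, and MMP9 at 35.4 ± 9.85 against 53.8 ± 5.61 CPM. FN1 did not pass the test in the first step (log2 change 1.02, adjusted p = 0.0506) and rose by 2.28 ± 0.39 in the later one (adjusted p = 3.56e-05). This gene, whose product fibronectin is a classical mesenchymal marker, had 1273, 1484, 639 and 2112 CPM at 6 h and 6301, 7038, 3715 and 8688 CPM at 24 h, with series 27-1 lowest and 27-2 highest at both times. FBLN5, an elastic fibre protein, rose by 2.19 ± 0.31 (adjusted p = 3.24e-06), and series 27-2 was highest at both times, with 23.4 and 104 CPM.

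Among the genes with at least 10 CPM, FGFBP1 and SCNN1G were those named for falling in both steps. FGFBP1, which releases fibroblast growth factors from the matrix, fell from a solvent mean of 189.7 ± 38.7 CPM to 91.6 ± 24 CPM after 6 h, 42.6 ± 15.2 CPM after 24 h and 23.1 ± 4.73 CPM after 72 h. SCNN1G, the gamma subunit of the epithelial sodium channel, had 103 ± 30.4, 51.5 ± 22.6, 25.1 ± 9.65 and 15.3 ± 6.07 CPM at the same times. The log2 changes from 6 h to 24 h were -1.13 ± 0.16 (adjusted p = 4.32e-06) and -1.02 ± 0.18 (adjusted p = 4.63e-05). The deepest fall of the whole comparison among genes of this level was that of KRT15, a keratin of basal and progenitor cells (chr17:41513745-41522529), from 400.2, 269, 448 and 76.6 CPM to 46.3, 22.6, 64.3 and 17.6 CPM. Its lowest 6 h value, in series 27-2, was still above its highest 24 h value, in 27-1, and the log2 change was -2.92 ± 0.29 (adjusted p = 2.09e-08). CAMK2B, a subunit of calcium/calmodulin-dependent kinase II, fell by 2.31 ± 0.28 (adjusted p = 4.83e-07), from 67.7 ± 9.24 to 13.5 ± 1.55 CPM. PKMYT1, the kinase that holds CDK1 inactive, and TYMS, thymidylate synthase, both fell by 1.24 (± 0.13 and ± 0.12, adjusted p = 5.73e-08 and 1.42e-08). They stood at 38.4 ± 9.63 and 22.7 ± 5.7 CPM at 72 h, against 18.6 ± 4.06 and 13.3 ± 2.2 CPM at 24 h. LY6E, a membrane protein of the LY6 family, fell by 1.21 ± 0.15 (adjusted p = 5.83e-07). Among these genes, TGM2, TNC, CAMK2B, PKMYT1, TYMS, KDELR3 and ABAT overlap another gene on the opposite strand, and the library kit keeps no strand, so that shared reads could belong to either.

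Few early responses were undone. Of the 1157 genes higher at 6 h, 565 rose again by 24 h, 549 were not called in the later step and 43 were lower. Of the 2687 genes lower at 6 h, 1447 fell again, 1187 were not called and 53 were higher. Over all 14865 tested genes, 11.0% were higher and 26.7% lower in the later step. Since the 6 h libraries stand in both steps, turning back is the pattern that their sampling error favours, and the counts of 43 and 53 are to be read with that. Without the series as a block in the fit, 12 and 9 genes turned back in this sense, and with TMM factors 33 and 63. These 2 counts, which use no minimum size, were added after the data had been examined.

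The 6 genes with a rise of at least 1 that fell back by at least 50% of it were LINC02593, MAB21L4, TBX18, LINC00525, EPHB6 and ASPN, and 4 of them had a mean under 1 CPM. EPHB6, a kinase-defective ephrin receptor (chr7:142855061-142871094), had 8.12, 7, 9 and 3.87 CPM at 6 h and 3.72, 2.07, 4.12 and 0.979 CPM at 24 h. All 4 series fell, but the groups overlapped because series 27-2 was low at both times. The solvent mean of 2.67 ± 0.957 CPM became 7 ± 2.24 CPM, then 2.72 ± 1.46 CPM and after 72 h 0.967 ± 0.47 CPM, so that the level at 24 h was that of solvent and at 72 h lower still. The log2 change from 6 h to 24 h was -1.37 ± 0.22 (adjusted p = 2.09e-05, and 0.0581 without the series block). MAB21L4, a gene of squamous epithelia, had 8.57, 4.43, 17.4 and 1.9 CPM at 6 h and 2.68, 0.505, 8.2 and 0.405 CPM at 24 h. Each series fell, by different amounts and from very different levels, and the change of -1.48 ± 0.29 passed with the block (adjusted p = 0.000198) but not without it (0.0766). LINC00525 went from a mean of 1.14 ± 0.46 to 0.534 ± 0.157 CPM. TBX18, a T-box transcription factor, went from 0.308 ± 0.106 to 0.119 ± 0.0629 CPM, and its change did not pass without series 27-2 (adjusted p = 0.146). LINC02593 stood at 0.423, 0.192, 0.504 and 0.106 CPM at 6 h and at 0.0474, 0, 0.0549 and 0 CPM at 24 h, at or below the floor. ASPN, a small leucine-rich proteoglycan, had 0.149, 0.0767, 0.0458 and 0.0423 CPM at 6 h and was at 0 in all solvent libraries, too few counts for a fold.

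Among genes of at least 10 CPM whose times did not overlap, and with no minimum size of the change, MYPN had the largest fall after an early rise. This gene for myopalladin, a sarcomeric and actin-associated protein, had 28.9, 30.2, 25.2 and 24.3 CPM at 6 h and 17.4, 17.7, 14.9 and 13.9 CPM at 24 h. The groups were clearly apart, the mean in solvent had been 17.9 ± 1.54 CPM, and the log2 change was -0.77 ± 0.11 (adjusted p = 7.40e-06). The other 4 genes named by these conditions changed by less. ADA, adenosine deaminase, fell by 0.48 ± 0.10, SPDL1, an adaptor of dynein at kinetochores, by 0.44 ± 0.07, FOXC2, a forkhead transcription factor, by 0.44 ± 0.12 and HSPA12A, an HSP70 relative, by 0.36 ± 0.07 (adjusted p = 0.000251, 1.80e-05, 0.00375 and 0.000107). FOXC2 overlaps its antisense transcript FOXC2-AS1.

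The 5 genes that fell by at least 1 and recovered were ODAD4, CHODL, ADAMTS1, SNORD63 and MIR4653. Only ADAMTS1, a secreted metalloprotease, exceeded 1 CPM on average. It had 1.37, 1.11, 0.916 and 0.55 CPM at 6 h and 3.93, 2.53, 3.26 and 2.6 CPM at 24 h. No library overlapped, the log2 change was 1.63 ± 0.29 (adjusted p = 5.28e-05), and from a solvent mean of 2.23 ± 0.724 CPM it reached 9.53 ± 1.88 CPM at 72 h, so that it did not only return but passed its starting level. CHODL, a membrane lectin, went from a solvent mean of 0.423 ± 0.158 CPM to 0.112 ± 0.0367 CPM and back to 0.287 ± 0.0873 CPM. SNORD63 and MIR4653, at most 0.474 CPM in the 8 libraries, lie within HSPA9 and AP1S1 on the same strand, so that their counts may be reads of these genes. ODAD4 was at 0 in 3 of the 4 libraries of 6 h. Without a minimum size, the named genes that turned up were ZHX2, MAP2K1, PACC1, SLC19A2 and SENP5, by 0.45, 0.36, 0.30, 0.28 and 0.21. MAP2K1, which encodes the kinase MEK1, went from a solvent mean of 128 ± 7.28 CPM to 114 ± 7.31 CPM and then to 146 ± 11 CPM, and stood at 140.5 ± 10.3 CPM after 72 h.

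The listed regulators of the TGFβ pathway, which were not all early targets, showed no collective fall. At 6 h, 14 of the 26 had been higher and 5 lower, against 7.78% and 18.1% of all genes. From 6 h to 24 h, 12 rose and 2 fell, against 11.0% and 26.7% of all genes, with a median log2 change of 0.270 against -0.0866 over all genes. PMEPA1, which keeps receptor-activated SMADs from the receptor, rose by 0.76 ± 0.23 (adjusted p = 0.0109), from 538, 565, 488 and 557 CPM to 866, 974, 869 and 928 CPM, after a first rise of 2.76. The 2 times did not overlap. The inhibitory SMAD7 rose by 0.46 and the SMAD repressor SKIL by 0.44, after 1.04 and 1.87 in the first 6 h, and FST, an activin antagonist, rose by 0.83 ± 0.20 (adjusted p = 0.00173). The ubiquitin ligase gene NEDD4L fell by 0.19 and the co-receptor gene TGFBR3 by 0.54, and neither fall passed without series 27-2. Of the 3 ID genes tested, inhibitors of basic helix-loop-helix factors, 0 passed, and their log2 changes were 0.59, 0.02 and -0.03 for ID2, ID3 and ID1. Of 13 EMT transcription factors, 6 rose and 0 fell, against 11.0% and 26.7% of all genes, with a median of 0.367. SNAI1, the repressor SNAIL1, rose by 0.82 ± 0.19 (adjusted p = 0.00136) to a mean of 6.38 CPM after a first rise of 3.49, and its libraries overlapped. ZEB1 rose by 0.42 without a change in the first step (-0.01), and SOX4, SNAI2, RUNX2 and ZEB2 rose by 0.62, 0.44, 0.48 and 0.46. Without the block, 3 of the 6 passed.

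Of 18 members and partners of the AP-1 family, 3 rose and 1 fell, against 11.0% and 26.7% of all genes. JUN, which had risen by 1.77 at 6 h, changed by 0.27 and did not pass. FOS fell, from 39.5, 28.7, 34.1 and 20.2 CPM to 16, 16.9, 17.8 and 15.4 CPM. All 24 h libraries were lower, and the log2 change was -0.86 ± 0.12 (adjusted p = 4.24e-06), with 0.03 in the first step. MAF, a basic leucine zipper factor, rose by 1.16 ± 0.19 (adjusted p = 2.05e-05), to 3.91 CPM. With TMM factors 6 of the 18 rose. Among 27 growth-factor early genes and ERK feedback genes 5 rose and 5 fell, against 11.0% and 26.7% of all genes, with a median of 0.0885. SPRED3, an inhibitor of the RAS-ERK pathway, rose by 0.73, and its relative SPRY1 fell by 0.83, after a fall by 1.67 in the first step. With TMM factors 10 of the 27 rose and 3 fell, and without the block 4 rose and 3 fell.

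Genes of the mesenchymal programme moved upward as groups. Of 35 matrix and matricellular genes 23 rose and 0 fell (median 0.623), and of 27 matrix remodelling and protease genes 22 rose and 0 fell (median 0.597), compared with the 11.0% of all genes that rose. In the fit without the block, 16 and 17 rose and 0 fell. POSTN, periostin, had the largest log2 change of the matrix list, 3.09 ± 0.76 (adjusted p = 0.00199). At 6 h it stood at 1.82, 1.73, 2.56 and 62 CPM and at 24 h at 86.7, 63.7, 41.7 and 337 CPM. Series 27-2 was far above the others at both times, and every series rose, and without 27-2 the change still passed (adjusted p = 0.00421). LAMA3, a laminin chain, rose by 1.39 and TGFBI, a matrix protein named for its induction by TGFβ, by 1.44. COL1A1 had risen by 2.27 at 6 h and rose by 0.62 thereafter, whereas MFAP5, a microfibril protein, rose by 1.26 after 0.07. Among the proteases, the collagenase MMP13 and the metalloprotease ADAM19 rose by 1.79 and 1.52, and urokinase (PLAU), an early gene with 1.93 in the first step, by a further 1.03. TIMP2, an inhibitor of MMPs, rose by 0.89 with 0.00 in the first step. MMP1 changed by -0.18 and did not pass. The summed fibroblast markers, mostly DCN, which is also a member of the matrix list, rose alongside. PDGFRA, at levels near 1 CPM, rose by 1.12 (limma-voom adjusted p = 0.00435) after 1.38 in the first step. The other markers of that cell type lay at the levels given above.

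Of 20 integrin and focal adhesion genes, 14 rose and 0 fell (median 0.394), against 11.0% and 26.7% of all genes, and 12 rose without the block. ITGAV, the alpha chain of the integrins that activate latent TGFβ, went from 409.6, 409, 291 and 349 CPM to 712, 684, 720.3 and 651 CPM. The times did not overlap and the log2 change was 0.94 ± 0.11 (adjusted p = 4.17e-07). Its partner ITGB3 rose by 2.73 ± 0.33 (adjusted p = 4.18e-07), from 0.712 to 4.39 CPM, and CDH2, N-cadherin, by 0.90. Of 21 actin and contractile genes, 12 rose and 2 fell (median 0.351), against the same shares of all genes, and 10 rose and 1 fell without the block. TAGLN, transgelin, rose by 1.39 ± 0.16 (adjusted p = 2.55e-07), from 129 to 341 CPM. The 2 that fell with the block were ACTA2, smooth muscle actin, by 0.25 ± 0.07 (adjusted p = 0.00941, 0.0841 without the block and 0.123 with TMM factors) and CAV1, caveolin, by 0.36 ± 0.05 (adjusted p = 5.58e-06). ACTA2 overlaps FAS and 2 other genes of the table. VIM, vimentin, rose by 0.41.

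Of 23 chemokines and cytokines, 1 was higher and 3 were lower at 6 h against solvent, and 12 rose and 2 fell from 6 h to 24 h, with medians of 0.0101 and 0.363. Over all genes the shares were 7.78% and 18.1% in the first step and 11.0% and 26.7% in the later one. IL11, a cytokine of the IL6 family, rose by 1.30 ± 0.19 (adjusted p = 6.36e-06), from 10.5, 14.1, 5.56 and 13.8 CPM to 23.1, 30.6, 19.7 and 33.2 CPM, and was the member already up at 6 h. The neutrophil chemokines CXCL8, CXCL3 and CXCL1 rose by 1.05, 0.81 and 0.71, and IL1B by 1.00. IL6 and TNF rose by 2.13 and 1.51 but did not exceed 1.01 CPM in any of the 8 libraries. LIF fell by 0.64 and IL33 by 1.86, the latter at means of 0.82 and 0.204 CPM, and neither of the 2 falls passed without series 27-2 or without the block. The 4 series medians of the list were 0.291, 0.231, 0.737 and 0.670, higher in clone 27.

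Of 36 growth factor genes and WNT, NOTCH and YAP targets, 15 rose and 5 fell (median 0.325), against 11.0% and 26.7% of all genes. PDGFB rose by 1.48, WNT5B by 1.24, WNT5A by 1.04, VEGFA by 0.64 and VEGFC by 0.58, while the receptors NOTCH1 and NOTCH3 fell by 0.36 and 0.34 and WNT10A by 1.19. Without the block 9 rose and 2 fell, and with TMM factors 20 rose and 2 fell. Of 30 ATF4 targets and genes of the unfolded protein response, 14 rose and 3 fell (median 0.236), against 11.0% and 26.7% of all genes. The risers included chaperones and folding enzymes of the endoplasmic reticulum, with CALR at 0.52, HSPA5 at 0.41, HSP90B1 at 0.36 and PDIA6 at 0.21. The factor XBP1 rose by 0.44. These were not the largest changes, since the list also held 1 second-wave riser and its highest log2 change was 1.27. The amino acid transporter genes SLC7A5 and SLC3A2 fell by 0.27 and 0.28 and DDIT4, an inhibitor of mTORC1, by 0.47, and with TMM factors 1 of these 3 falls was left. Of 35 interferon-stimulated genes, 8 were higher and 8 lower (median -0.0727), against 11.0% and 26.7% of all genes, so that the lower share was no larger than that of all genes. ISG20, an RNA exonuclease, rose by 1.06 ± 0.15 (adjusted p = 3.08e-06) and IFI27 by 1.07, whereas OAS3, an oligoadenylate synthetase, fell by 0.80 ± 0.15 (adjusted p = 0.000119) and the immunoproteasome subunits PSMB9 and PSMB8 by 0.77 and 0.60. Without the block 5 rose and 3 fell, and IFI27 and PSMB9 no longer passed (adjusted p = 0.234 and 0.306). Of 30 genes of sterol and fatty acid synthesis, 4 rose and 7 fell (median -0.0371), near the 11.0% and 26.7% of all genes. The direction of this list depended on the scaling, with 9 higher and 2 lower under TMM factors, and without the block 2 were higher and 3 lower. FASN, fatty acid synthase, fell from 1183, 1130.0, 1389 and 1274 CPM to 1015, 899.8, 786 and 850.1 CPM, by 0.49 ± 0.10 (adjusted p = 0.000356), and the times did not overlap.

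Epithelial genes moved both ways. Of 39 genes of epithelial adhesion and splicing, 6 rose and 13 fell, with a median of -0.0693, and these shares were near the 11.0% and 26.7% of all genes. EPCAM, the epithelial cell adhesion molecule, went from 35.5, 26.2, 55.6 and 27.5 CPM to 16, 11.2, 22.5 and 13.9 CPM, by -1.16 ± 0.16 (adjusted p = 1.58e-06), without overlap. EHF, an epithelial ETS factor, and TJP3, a tight junction scaffold, fell by 1.10 and 0.83, the splicing regulators ESRP2, RBM47 and ESRP1 by 0.50, 0.42 and 0.19 and CLDN7 by 0.52. CDH1, E-cadherin, changed by 0.06 and did not pass. The claudin CLDN4 rose, by 1.21 ± 0.21 (adjusted p = 5.88e-05), from 11.7, 6.86, 11.8 and 2.86 CPM to 19.3, 9.19, 36.3 and 11.7 CPM. The 2 times overlapped, and without the block the adjusted p was 0.069. Without the block 1 of the 39 rose and 4 fell, without series 27-2 4 rose and 8 fell, and with TMM factors 9 rose and 9 fell, so that no direction of this list holds across the settings.

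Of 36 keratin and squamous genes, 20 fell and 4 rose (median -0.579), against 26.7% and 11.0% of all genes, so that the share of risers was near that of all genes. Beside KRT15, the falls were largest for SPRR3, a cornified envelope protein (-3.05 ± 0.40, adjusted p = 1.22e-06, from 5.04 to 0.658 CPM), for KRT13 (-2.50 ± 0.22, adjusted p = 6.07e-09) and for the calprotectin subunits S100A8 and S100A9 (-1.97 and -1.91). S100A8 had 117, 85.2, 120.0 and 18.3 CPM at 6 h and 22.1, 12.9, 46.6 and 6.24 CPM at 24 h. The times overlapped because series 27-2 was low throughout, yet each series fell. KRT13 ranged from 0.719 to 31.4 CPM at 6 h, and its change did not pass without the block (adjusted p = 0.247). KRT5, the main basal keratin, fell by 0.66, from 5339 to 6997 CPM at 6 h to 3262 to 4284 CPM at 24 h, while KRT14 rose by 0.56 and the wound keratins KRT6A, KRT6B and KRT6C by 0.25, 0.37 and 0.30. In the step from solvent to 6 h, 10 of the 36 had been higher and 6 lower, against 7.78% and 18.1% of all genes. Without the block 9 fell and 0 rose, and KRT14 and the KRT6 genes no longer passed, and without series 27-2 16 fell and 2 rose.

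The most complete change was that of the proliferation genes. Of 48 genes of DNA replication and the G1/S transition, 44 fell and 0 rose (median -0.848), and of 53 mitotic genes all 53 fell (median -0.805), against 26.7% of all genes. In the first 6 h, 34 of the 48 replication genes had been lower, but 9 of the 53 mitotic genes, against 18.1% of all genes. The medians of that step over all genes of each list were -0.356 and -0.158. POLE2, a subunit of DNA polymerase epsilon, fell by 1.25 ± 0.17 (adjusted p = 2.54e-06) and CDT1, which loads the MCM helicase onto origins, by 1.21 ± 0.12 (adjusted p = 1.88e-08), from 33.4, 34.2, 46.3 and 43.7 CPM to 18.9, 13.8, 16 and 19.9 CPM. The CDT1 groups were wide apart. CCNE1, CCNE2, SLBP and E2F7, which act at the G1/S boundary or in its feedback, did not pass (-0.21, -0.27, -0.15 and 0.26), and CCNE2 had already fallen by 1.01 at 6 h. Among the mitotic genes, the kinetochore subunits SPC24 and SPC25 fell by 1.11 ± 0.11 and 1.01 ± 0.12 and NCAPG, a condensin subunit, by 1.06 ± 0.11 (adjusted p = 2.35e-08, 4.01e-07 and 3.89e-08). NCAPG went from 61.3, 61, 70.2 and 69.4 CPM to 40.1, 23, 30.2 and 35.2 CPM, without overlap. The series medians of the replication list were -0.498, -0.906, -1.13 and -0.821 and those of the mitotic list -0.496, -0.914, -0.929 and -0.751, so that each series fell and 2-1 fell least. Without the block 43 and 52 genes fell, with TMM factors 44 and 52 fell and 1 replication gene rose, and without series 27-2 44 and 53 fell.

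These lists could be read against the sequence of their promoters. Replication genes are classical targets of E2F factors, and mitotic genes carry the cell cycle genes homology region (CHR). The 250 bases before and 50 after the annotated starts were taken from RefSeq (GRCh38.p14) for 27305 gene symbols and searched on both strands for the E2F letters TTTCGCGC or TTTGGCGC, the CHR letters TTTGAA and the AP-1 letters TGANTCA. The E2F letters stood in 13 of 41 replication genes (31.7%), in 1.40% of all symbols and in 2.32% of the tested genes, and the CHR letters in 34 of 44 mitotic genes (77.3%), in 18.2% of all and in 14.3% of the tested. The AP-1 letters stood in 8 of 19 keratin and squamous genes (42.1%), in 9.37% of all and in 7.66% of the tested. This was the highest AP-1 share among the 20 lists, all of which were searched, and only 19 of the 36 genes of this list had a promoter window. For the second-wave genes that fell, the E2F and CHR letters stood in 3.03% and 18.2% of 132 genes. A match is a description of the letters and no evidence of binding. For the 3 members of each cell cycle list with the largest falls among those whose letters lay within the last 120 bases before the start, these bases are printed 5′ to 3′ on the strand of the gene, with the E2F letters (E2F2, MCM7, POLE) or the CHR letters (NCAPG, CDC20, MKI67) in capitals. E2F2 encodes an E2F factor, MCM7 a subunit of the replicative helicase, POLE the catalytic subunit of polymerase epsilon, CDC20 the activator of the anaphase-promoting complex and MKI67 the proliferation antigen Ki-67, and the 6 genes fell by 1.00, 0.91, 0.78, 1.06, 0.89 and 0.88 in the order printed.
E2F2, chr1:23531234-23531353, minus strand: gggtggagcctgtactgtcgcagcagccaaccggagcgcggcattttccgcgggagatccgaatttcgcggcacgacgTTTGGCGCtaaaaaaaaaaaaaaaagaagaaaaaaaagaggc
MCM7, chr7:100101398-100101517, minus strand: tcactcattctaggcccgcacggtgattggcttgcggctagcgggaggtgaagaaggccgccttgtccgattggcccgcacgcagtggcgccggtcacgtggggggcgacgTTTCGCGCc
POLE, chr12:132687343-132687462, minus strand: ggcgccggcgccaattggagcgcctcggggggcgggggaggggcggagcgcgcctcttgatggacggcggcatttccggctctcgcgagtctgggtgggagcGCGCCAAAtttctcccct
NCAPG, chr4:17810859-17810978, plus strand: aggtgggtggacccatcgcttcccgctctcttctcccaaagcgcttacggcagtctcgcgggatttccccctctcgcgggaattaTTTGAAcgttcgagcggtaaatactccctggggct
CDC20, chr1:43358861-43358980, plus strand: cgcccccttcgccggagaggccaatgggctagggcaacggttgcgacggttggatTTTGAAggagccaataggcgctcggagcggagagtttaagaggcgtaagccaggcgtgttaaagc
MKI67, chr10:128126424-128126543, minus strand: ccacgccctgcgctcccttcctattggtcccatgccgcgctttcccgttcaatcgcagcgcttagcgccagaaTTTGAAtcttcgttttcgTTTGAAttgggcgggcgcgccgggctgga
POLE carries its letters on the strand opposite to the gene, and MKI67 carries TTTGAA 2 times.

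Regulators of G1 moved both ways, with 5 of 19 higher and 8 lower, against 11.0% and 26.7% of all genes. Without the block 1 was higher and 8 were lower. CDK4 fell from 114, 117, 111 and 117 CPM to 76.4, 72.7, 61.6 and 69 CPM, by 0.72 ± 0.06 (adjusted p = 1.09e-09), with close replicates and separate groups. MYC fell by 0.41 ± 0.08 (adjusted p = 0.000109) after a first fall by 0.70. The inhibitor genes CDKN2D and CDKN1A rose by 0.37 and 0.15 and GADD45B, a stress-inducible TGFβ target, by 0.42 ± 0.10 (adjusted p = 0.00126). CCND1, cyclin D1, rose by 0.21 ± 0.07 (adjusted p = 0.0179, and 0.0832 without the block) after a fall by 0.30. Of 34 ribosome biogenesis genes, 32 fell and 0 rose (median -0.345), and 32 had also been lower at 6 h. Over all genes 26.7% fell in this step and 18.1% were lower at 6 h. NCL, nucleolin, fell from 1098, 1006, 1175 and 1209 CPM to 769, 720.4, 692 and 716 CPM, by 0.63 ± 0.06 (adjusted p = 1.49e-08), without overlap, and the rRNA methylase gene FBL by 0.64 ± 0.06 (adjusted p = 1.55e-08). Under TMM factors 25 of the 34 fell.

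The same step was then read in the mut clones, whose 8 libraries of 6 h and 24 h gave none of the changes that chose the genes above, though all 32 libraries entered the filter and the estimate of the spread. In mut cells 639 genes were higher at 24 h than at 6 h (4.30%) and 1083 lower (7.29%). Of the 88 second-wave risers, 20 were called higher in mut cells and 1 lower, and their median log2 change there was 0.569, against 1.27 in WT cells. For the 186 second-wave fallers, 71 were called lower and 0 higher, with medians of -0.473 and -1.24. Of the 67 genes that rose in both steps, 37 were called higher in mut cells, with medians of 1.18 and 1.48. Because the classes were picked for large changes in WT libraries, their WT medians are expected to exceed those of any other libraries, and the medians are given side by side and not compared. Of the 6 genes that fell back, 2 were called lower in mut cells, MAB21L4 by 0.87 (adjusted p = 0.0283) and EPHB6 by 0.69 (adjusted p = 0.00255). Of the 5 that recovered, 0 were called, and ADAMTS1 changed by 0.06.

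**Figure D1:**
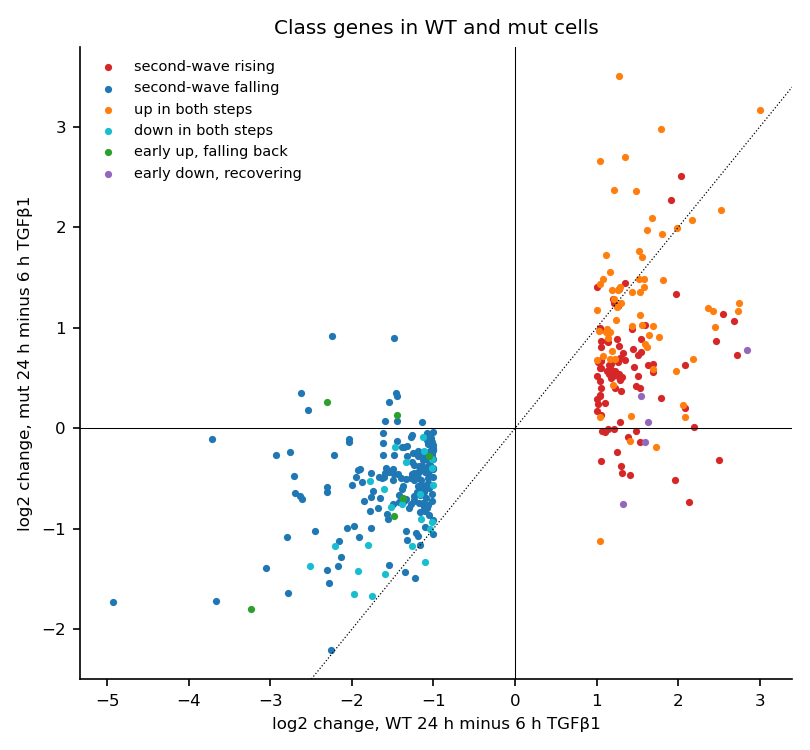
Log2 change from 6 h to 24 h of TGFβ1 of the class genes in WT cells (x axis, used to choose them) and in mut cells (y axis); the dotted line marks equal changes. Most second-wave genes lie between the dotted line and the horizontal axis (medians 1.27 and 0.569 for the risers, -1.24 and -0.473 for the fallers), and genes that rose in both steps scatter on both sides of the line.

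The difference between the genotypes was tested for every gene as mut minus WT of the 24 h against 6 h change. It was above 0 in 874 genes (5.88%) and below 0 in 209 (1.41%). Without the series block 161 and 28 genes passed, with TMM factors 441 and 321 and without series 27-2 465 and 102, so that the counts depend on these choices. The proliferation lists, which were chosen with earlier results of these data known, held many of the calls. Of the 48 replication genes 41 had a difference above 0 and 0 below, with a median of 0.656, and of the 53 mitotic genes 44 and 0, with a median of 0.526. In mut cells themselves, 10 of the 48 and 23 of the 53 were called lower, against 7.29% of all genes, so both lists fell there too. The medians in mut cells over all 48 and all 53 genes were -0.152 and -0.258. The mut series medians of the replication list were -0.294, -0.208, -0.0270 and -0.0752 for the series 1-1, 1-2, 65-1 and 65-2, and those of the mitotic list -0.413, -0.226, -0.118 and -0.209. Every mut series lay nearer to 0 than every WT series in both lists. With TMM factors 40 and 33 genes had a difference above 0, without series 27-2 37 and 32, but without the block 4 and 2.

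Single genes showed the same. TYMS fell by 0.36 in mut cells, with a difference of 0.88 (adjusted p = 0.00209), CDK4 fell by 0.15, with a difference of 0.57 (adjusted p = 0.000196), and NCL by 0.11, with a difference of 0.52 (adjusted p = 0.000795). Over all genes, 5.88% had a difference above 0 and 1.41% below. Among ribosome biogenesis genes 14 of 34 had a difference above 0, but 4 with TMM factors, 3 without series 27-2 and 1 without the block. Chemokines and cytokines differed in the other direction, in 9 of 23 genes, with 0 above 0 and a median of -0.358. In mut cells 1 of the 23 rose and 5 fell, against 4.30% and 7.29% of all genes. CXCL8, CXCL1 and IL6 changed there by -0.33, -0.53 and -0.73. CXCL8 and IL6 did not pass in mut cells (limma-voom adjusted p = 0.329 and 0.322), and IL6 averaged only 0.264 CPM over the 8 WT libraries. The mut series medians of this list were -0.0494, -0.0789, -0.228 and -0.182, all below the 4 WT medians. The count below 0 was 9 with TMM factors, 5 without series 27-2 and 1 without the block. Matrix genes showed 0 differences of 35, with 21 rising in mut cells and a median there of 0.564, and among the proteases 5 of 27 differed.

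By the rule for single genes, the most negative differences were those of SPOCK1, TGM2 and MMP2, and the most positive those of ALDH3A1, SPRR1B and SYT12. SPOCK1, a testican proteoglycan, stood at 42.2, 40.2, 24.3 and 46.4 CPM at 6 h and at 109.9, 105, 87 and 111 CPM at 24 h in WT cells and did not overlap, with a log2 change of 1.46 ± 0.09 (adjusted p = 4.47e-11). In mut cells it had 45.6 ± 1.87 and 43.8 ± 4.33 CPM, and the difference of the changes was -1.51 (adjusted p = 1.78e-07). SPRR1B, another cornified envelope protein, fell by 1.44 in WT cells, from 33.8 ± 14.3 to 12.6 ± 7.46 CPM, and changed by 0.07 in mut cells, which had 6.19 ± 1.24 CPM at 6 h, a difference of 1.51 (adjusted p = 0.00324). SYT12, a synaptotagmin, fell by 1.90 in WT and by 0.40 in mut cells (difference 1.51, adjusted p = 0.000926), from 14.6 ± 5.3 and 81.4 ± 15.4 CPM at 6 h. The levels of SPRR1B and SYT12 thus differed between the genotypes before the step began.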

How the data were processed

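RNA-seq libraries (TruSeq RNA v2, which keeps no strand information, paired reads on a NovaSeq) were trimmed with Trimmomatic and aligned and counted with STAR against GRCh38 (Ensembl) by the authors; tool versions are not given in the sources used here. The deposited values are raw read counts per gene without normalization, for 17788 genes and 32 libraries, with 0 columns of per-sample values left unused, and the authors' table starts at a row total of 4 counts. Depth limits low genes: differences at levels near 3 counts rest on few reads, also where they passed the test, as for ASPN.

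Groups came from the labels. Genes were kept by the filterByExpr function of edgeR 4.0.16 (minimum count 10, minimum total 15), which left 14865, and fitted with limma-voom (limma 3.58.1, R 4.3.3) on all 32 libraries with library totals as scaling, as in the study's methods, and with the series as a block, which those methods do not include. p-values are two-sided and Benjamini-Hochberg adjusted over all 14865 genes. CPM, SDs and within-series changes (log2 CPM with 0.5 counts added) were computed in Python 3.11.15. A series is defined by the labels as 1 clone in 1 replication: 6 h and 24 h libraries of a series deviated together from their group means, with correlations across genes of 0.310, 0.317, 0.506 and 0.721. Whether the 2 replications of a clone were separate cultures beyond their label as biological replications is not stated for each library, so that p-values measure the spread between these samples, which may be technical. No pair of libraries agreed within sampling noise (smallest chi-square per degree of freedom 12.0). Gene names and coordinates are those of GENCODE release 44 (GRCh38).

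Named were the 10 largest rises and falls among called genes with at least 10 CPM, a symbol and no overlap between the times, 5 genes per class by the same conditions, 3 genotype differences in each direction, up to 4 members per list and direction, JUNB, all members of the 2 smallest classes and, added afterwards, 5 genes that turned back in each direction; a few further list members are named for their role, and some genes that the rules name are not reported here. The members, lists and rules were chosen with earlier results of these data known. Alternatives were TMM factors, no replicate block, edgeR quasi-likelihood and DESeq2 1.42.0 fits, no filter, a mean count of at least 50, fewer libraries, the removal of series 27-2 or of each library, and a minimum log2 change of 1.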

Additional observations from a re-analysis of the deposited data

Results flagged for a closer look

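In 80 groups of 4 libraries (the named genes of at least 10 CPM and the library totals, at 6 h and at 24 h), 4 had a library far from the other 3 by Dixon's test on log2 values, and chance alone flags about 1 group in 20. FBLN5 at 24 h was at 104 CPM in series 27-2 and at 26.2 to 32.1 CPM in the others. SCG5 at 6 h was at 7.44 CPM in 27-1 and at 20.2 to 22.6 CPM in the others. ADA at 6 h was at 24.1 CPM in 27-1 and at 19.4 to 20.0 CPM in the others, and HSPA12A at 24 h was at 22.5 CPM in 27-1 and at 26 to 26.6 CPM in the others. None of the 8 library totals was set apart.

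For 14 of 30 named genes the change from 6 h to 24 h differed between mut and WT cells by the test of the difference itself in limma-voom, against 5.88% of all genes above 0 and 1.41% below. Of the 14, TGM2, MMP2, ALDH3A1, SPOCK1, SPRR1B and SYT12 are also those the rule took for the size of this very difference, so that their passing is no result. Genes named for large WT changes are more likely to show a smaller change in other libraries, so that the direction of these differences is in part fixed by the choice. Below 0 (mut minus WT) were TGM2 with -1.50, MMP2 with -1.49, IL32 with -1.46 and SPOCK1 with -1.51 (adjusted p = 0.00437, 0.00198, 0.00598 and 1.78e-07). Above 0 were ALDH3A1 with 1.70, SYT12 with 1.51, SPRR1B with 1.51, CAMK2B with 1.21, IGFBP2 with 1.09, ENTPD2 with 1.07, FGFBP1 with 1.04, NUP210 with 0.97, TYMS with 0.88 and PKMYT1 with 0.80 (adjusted p from 0.000462 to 0.0339). Of these genes, SPRR1B, FGFBP1 and SPOCK1 changed by 0.07, -0.09 and -0.06 in mut cells.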

How the results depend on the processing

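All 155 named genes kept their direction in each of the 18 alternative fits that gave them a value, and 92 kept their call in all of them. Without series 27-2, 4484 genes were called, 4351 of them among the 5602 and in the same direction, and 538 of the 5602 changed by at least 1 (242 higher, 296 lower). With no replicate block, that is without the paired design, 4188 genes were called (1064 higher), 2 fell back, 44 and 12 moved up and down in both steps, and the genotype difference was called in 189 genes (161 above 0, 28 below). TMM factors with the replicate block gave 2806 higher, 2497 lower, 3 falling back, 15 down in both steps, and genotype differences of 441 above and 321 below 0. TMM factors with no replicate block gave 3734 genes (1812 lower), 96 second-wave fallers, 2 falling back, 7 down in both steps and 44 genotype differences (19 above, 25 below). The edgeR test gave 2702 higher, 2544 lower and 443 genotype differences above 0, and DESeq2 2726 higher and 412 differences below 0. No filter gave 10 falling back and 9 recovering, and a mean count of at least 50 gave 52 second-wave risers, 122 fallers, 3 falling back and 1 recovering. Fits on 12 or 16 WT libraries gave 3 falling back. Without series 27-2, 3 recovered and 567 genotype differences were called (465 above, 102 below), and with a minimum change of 1 there were 61 (31 above, 30 below).

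Leaving out each of the 8 libraries in turn gave 4683 to 5202 called genes (1274 to 1524 higher, 3383 to 3678 lower), 63 to 105 second-wave risers, 145 to 212 fallers, 4 to 7 falling back, 3 to 5 recovering, 51 to 65 up and 15 to 24 down in both steps, and 597 to 1230 genotype differences (500 to 984 above, 97 to 246 below). The genotype differences fell by over 1.5 times without the 24 h library of 27-2 (597) or 27-1 (701), the recovering genes fell to 3 without either of these, and the genes down in both steps fell to 15 without the 6 h library of 27-2. The causes of these shifts were not tested.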
